A study of Mus musculus with 14 samples.

Results

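The genes described here are 41 transcription factors of animal development outside the Hox clusters that are known as targets of Polycomb repressive complex 2 (PRC2): homeodomain factors of the LIM, paired-like, Dlx, Msx, Nkx2, Engrailed, sine oculis-related and Iroquois families, and forkhead, GATA, Zic, Pax, Sox, T-box and basic helix-loop-helix factors. They were taken by name, 41 of the 20972 genes that could be named on the arrays, and 51 probes reported them, 1 probe for 31 of the genes and 2 probes for each of the other 10. PRC2 places methyl groups on lysine 27 of histone H3 through its catalytic subunit Ezh2, and in blood and thymus this mark is known for keeping genes of other tissues silent. Many of these genes have CpG-rich promoters, and in embryonic stem cells they are classic carriers of the mark. The arrays measured RNA, not the mark.

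Expression was measured in CD4-CD8- (double-negative, DN) thymic cells of C57BL/6 background, from lethally irradiated CD45.1+ hosts that had received bone marrow carrying Cre-ERT2, a tamoxifen-dependent Cre recombinase. The marrow of the WT group carried Cre-ERT2 alone, and that of the other groups carried it together with floxed Ezh2 (Ezh2-deleted), floxed p53 (p53-deleted) or both (double-deleted). Deletion followed 4 weeks after transplantation, by an agent not given in the sources used here, and the thymus was sampled 3 months after transplantation. The markers CD44 and CD25 separated the stages: DN1 carries CD44 alone, DN2 carries both and DN3 carries CD25 alone. There was 1 array for each of the 4 genotypes and 3 stages. The other 2 of the 14 arrays held leukemic cells of the DN2 phenotype from double-deleted mice 13 and 19 with early T cell precursor leukemia, for which the labels give no time. The labels state neither separate mice for the stages of a genotype nor a sort for donor cells, so the 3 arrays of a genotype may share mice, and cells of the host may be included. They give no tissue restriction for the Cre. Their treatment protocol names bone marrow as the tissue that was stained and sorted, and every other label names the thymus. RNA came from sorted populations, so in all that follows fewer cells of a type and less RNA per cell cannot be told apart.

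Levels are log2 of the processed intensity minus the log2 75th percentile of the array, so 0 is the brightness of that percentile, and a member counted as detected where a probe was marked well above background by the scanner software. The lowest level so marked differed between arrays, from -4.16 to -2.98. The arrays lay on 4 slides: slide 1 held WT DN1, DN2 and DN3 with double-deleted DN2 and DN3, slide 2 held all Ezh2-deleted and p53-deleted arrays, slide 3 held double-deleted DN1 and slide 4 both leukemias. The 75th percentile was 70.5 to 141 intensity units on slide 2 and 299 to 589 on the others, and 55.0% to 58.6% of named genes were detected on slide 2 against 56.7% to 63.9% elsewhere. Trp53, the gene of p53, read -0.01, 0.87 and 1.12 in WT DN1, DN2 and DN3 cells and was below background in the 3 p53-deleted populations and in leukemia 13. Against the label, it was detected at each stage in double-deleted cells, at -4.03 (DN1), -2.59 (DN2) and -0.67 (DN3), and at -3.49 in leukemia 19. The undetected p53-deleted values were -3.70 (DN1), -5.57 (DN2) and -5.01 (DN3). At DN1 the undetected p53-deleted value thus lay above the detected double-deleted one. The lowest detected levels of these 2 arrays were -3.65 and -4.11. Here p53 loss therefore means the label. Ezh2 read 2.55 to 3.69 in Ezh2-deleted and 2.23 to 4.26 in WT cells. The probe is not placed relative to the deleted part, so it checks no label. All 8 T lineage markers were detected on every array. Xist was detected on the 3 Ezh2-deleted arrays alone and the Y-linked Ddx3y on all the others, so comparisons with Ezh2-deleted cells also set these apart.

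The promoter sequences show the CpG-rich DNA that members with different outcomes share. The sequences are the 250 bases before a RefSeq gene start (GRCm38.p6, read 5′ to 3′ on the gene's strand), with each CG dinucleotide in capitals. Lhx2 (chr2:38339031-38339280, plus strand, the upstream one of 2 listed starts) was high on each array labelled with the p53 deletion, Zic1 (chr9:91365769-91366018, minus strand) was high on 1 of its probes in leukemia, and Sox2 (chr3:34649745-34649994, plus strand) was detected on no array. The Lhx2 stretch holds 25 CG, and those of Zic1 and Sox2 hold 27 each.
Lhx2: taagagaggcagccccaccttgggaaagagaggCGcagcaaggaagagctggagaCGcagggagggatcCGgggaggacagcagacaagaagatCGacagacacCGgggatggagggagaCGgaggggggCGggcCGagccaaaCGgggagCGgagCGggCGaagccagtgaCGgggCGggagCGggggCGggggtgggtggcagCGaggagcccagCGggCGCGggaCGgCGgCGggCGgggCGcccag
Zic1: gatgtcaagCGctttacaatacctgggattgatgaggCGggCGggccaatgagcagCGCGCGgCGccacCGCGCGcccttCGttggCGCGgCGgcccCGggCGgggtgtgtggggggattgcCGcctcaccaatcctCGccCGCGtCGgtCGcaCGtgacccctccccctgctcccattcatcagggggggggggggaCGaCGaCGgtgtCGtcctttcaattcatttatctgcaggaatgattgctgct
Sox2: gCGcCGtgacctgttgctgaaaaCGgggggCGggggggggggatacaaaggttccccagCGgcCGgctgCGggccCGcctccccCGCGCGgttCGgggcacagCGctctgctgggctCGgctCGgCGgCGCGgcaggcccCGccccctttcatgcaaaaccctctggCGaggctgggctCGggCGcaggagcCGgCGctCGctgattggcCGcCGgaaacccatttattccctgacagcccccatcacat

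RefSeq promoters of 300 bases (250 before and 50 after the start) were given for 27 of the 41 members, 36 promoters in all. A promoter was counted as CpG-rich where over 50% of its bases were G or C and the CpG observed to expected ratio, the count of CG against that from the C and G content, exceeded 0.6. This held for 26 of the 36 member promoters (72.2%) and for 33.3% of all 32851 promoters. The median number of CG was 23 in the members and 7 over all promoters, and the median ratio was 0.80 against 0.38. The 9 promoters of 8 members that could be tested below were all CpG-rich, as were 17 of the 27 promoters of 19 members that could not. The TATAAA motif, searched on both strands, was in 4 of the 36 member promoters (11.1%) and in 13.6% of all promoters. Among 68 further developmental transcription factors, 60.5% of 76 promoters were CpG-rich.

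**Figure D1:**
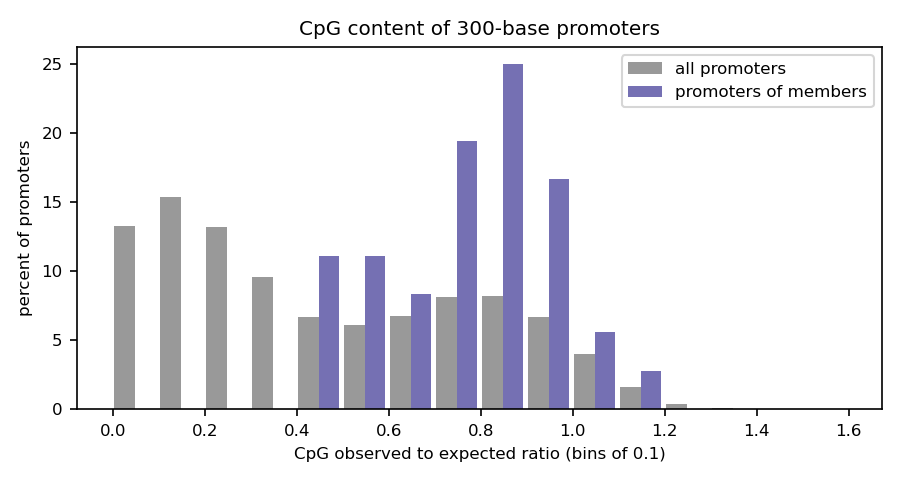
Share of promoters (vertical axis, percent) by CpG observed to expected ratio (horizontal axis, bins of 0.1) for the 36 promoters of members (purple) and all 32851 promoters (grey). The member promoters lie around a median of 0.80, and the median of all promoters is 0.38.

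Of the 41 members, 22 (53.7%) were detected on none of the 14 arrays, against 24.2% of all named genes: Zic2, Foxa1, Gata4, Gata6, Pax2, Pax6, Pax7, Pax9, Sox2, Sox9, Sox17, Tbx5, Six2, Otx2, Gsc, Hand1, Dlx1, Dlx2, Neurog2, Olig2, Isl1 and En1. They include Sox2 and Otx2, factors of pluripotent and early neural cells, Gata4 and Hand1, factors of the heart, and Pax7, a factor of muscle stem cells. A further 6 members were detected on 1 array each. One member, Nkx2-2, was detected on all 14 arrays, against 47.7% of named genes. By family, 7 of the 11 NK-like, Dlx, Msx, Engrailed, sine oculis-related and Iroquois genes were detected on at least 1 array, 3 of 6 LIM and paired-like genes, 3 of 7 forkhead, GATA and Zic genes, 2 of 3 T-box genes, 2 of 5 basic helix-loop-helix genes, 1 of 5 Pax genes and 1 of 4 Sox genes.

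The number of members detected did not rise with Ezh2 deletion alone. It was 8, 7 and 9 in WT DN1, DN2 and DN3 cells, 2, 4 and 5 in Ezh2-deleted, 5, 6 and 6 in p53-deleted and 11, 11 and 10 in double-deleted cells. Leukemias 13 and 19 had 15 and 8. The counts of the genotypes move with array brightness, since the lowest 75th percentiles belong to the Ezh2-deleted and p53-deleted arrays on slide 2 and the highest, 505 to 589, to the double-deleted arrays. Brightness and genotype cannot be told apart here. Between the arrays of slide 2, Ezh2-deleted cells had 2 to 5 members and p53-deleted cells 5 or 6. In the same order of arrays, 102 further developmental transcription factors had 23, 16 and 16 detected in WT, 13 in each Ezh2-deleted, 10, 19 and 14 in p53-deleted and 24, 29 and 19 in double-deleted cells. With the scanner's looser mark of a positive and significant signal, the median over the 14 arrays was 18 members in place of 7.5, and the highest count was 26, in double-deleted DN1 cells and leukemia 13.

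**Figure D2:**
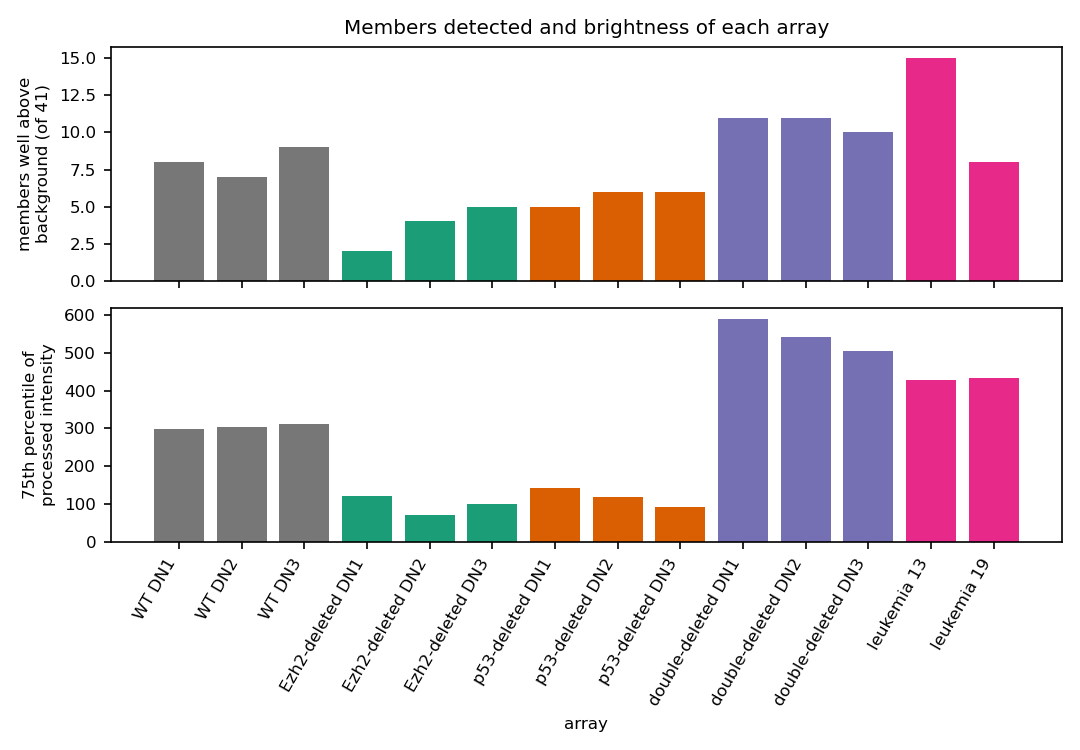
Members well above background (upper axis, of 41) and the 75th percentile of processed intensity (lower axis, intensity units) on each of the 14 arrays, coloured by genotype or leukemia. The 3 double-deleted arrays, at 11, 11 and 10 members, are also the brightest non-leukemic ones.

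**Figure D3:**
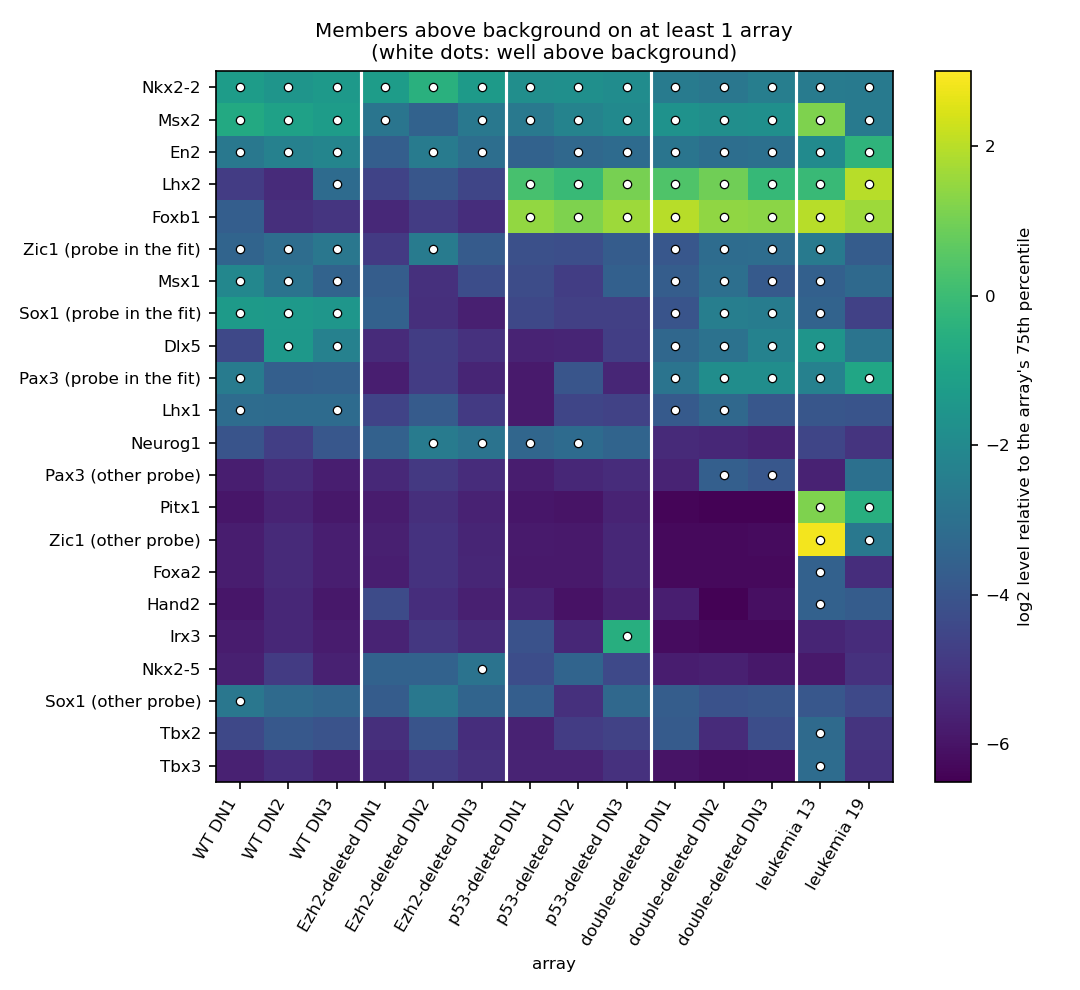
Level (colour, log2 relative to the 75th percentile of the array) of the 19 members detected on at least 1 array, with probes in rows and the 14 arrays in columns, and a white dot where the probe was well above background. Foxb1 and Lhx2 stand out in the p53-deleted, double-deleted and leukemic arrays, and Pitx1 in the leukemias.

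Differences were tested for the 13 members detected on at least 2 arrays: Pitx1, Lhx1, Lhx2, Zic1, Foxb1, Pax3, Sox1, Nkx2-2, Dlx5, Neurog1, Msx1, Msx2 and En2. The other 28 were not tested, and because a member could pass through the group where it was high, counts over the 13 do not speak for all 41. Genotype and stage were fitted together with limma to the 12 non-leukemic arrays over 27056 features, and p is limma's after Benjamini-Hochberg adjustment over all of them, with a call under 0.05. The 2 effects averaged over the other deletion set 6 arrays against 6, each side holding 3 arrays of slide 2 and 3 of slides 1 and 3, where slide 3 holds double-deleted DN1 alone.

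With p53 loss, 2 of the 13 members rose and 1 fell, against 7.73% of all features called in this comparison. Foxb1, a forkhead factor of the developing hindbrain and hypothalamus, read -3.67, -5.22 and -5.02 in WT DN1, DN2 and DN3 cells and -5.41, -4.82 and -5.26 in Ezh2-deleted cells, below background on all 6 arrays. In p53-deleted cells it stood at 1.47, 1.17 and 1.60, and the double-deleted values were 2.0, 1.42 and 1.36, with detection on all 6, so the arrays labelled with and without the p53 deletion did not overlap. The double-deleted arrays carry the deletion by label, although Trp53 was detected on all 3, and without double-deleted DN3, where Trp53 was highest, the fitted difference below was 6.44. Foxb1 was at least 31.8-fold higher with p53 loss (fitted log2 difference 6.40 ± 0.26 SE, adjusted p = 2.67e-05). This bound sets the mean of all arrays of the brighter group against, on each dim array, the higher of its lowest detected signal and the probe's own signal. Where the brighter group was detected only in part, its undetected readings enter the mean and the fold is no strict bound. Foxb1 entered the test through arrays labelled with the p53 deletion alone, so its call follows in part from the filter. Between p53-deleted and Ezh2-deleted cells, all on slide 2, Foxb1 was at least 28.1-fold higher in the former (adjusted p = 8.63e-05). Between double-deleted and WT cells it was at least 35.8-fold higher in the former (adjusted p = 0.000125), and on slide 1 alone the fitted difference was 6.51 ± 0.24 SE (adjusted p = 0.0286). With background estimated by normexp, the fitted difference for p53 loss was 2.82 and the call held.

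Lhx2, a LIM homeodomain factor of forebrain, eye and hair follicle stem cells, followed the same division. It read -4.82 and -5.32 in WT DN1 and DN2 cells, both below background, and -3.17 in WT DN3 cells, where it was detected. It read -4.58, -3.97 and -4.50 in Ezh2-deleted cells, below background on all 3. It read 0.24, -0.09 and 1.07 in p53-deleted and 0.39, 0.95 and -0.15 in double-deleted cells, detected on all 6 and above every array not labelled with the p53 deletion. Lhx2 too would not have entered the test without arrays labelled with that deletion. The level rose by a fitted 4.80 ± 0.38 (SE, 6 against 6 arrays, adjusted p = 0.000559) with p53 loss, and by 1.91 with normexp. Within slide 2, Lhx2 was at least 14-fold lower in Ezh2-deleted than in p53-deleted cells (adjusted p = 0.00333). Double-deleted cells stood 4.84 ± 0.54 above WT (adjusted p = 0.00205). On slide 1 alone, with 2 arrays a side, this was 4.65 and the call was lost (adjusted p = 0.126).

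**Figure D4:**
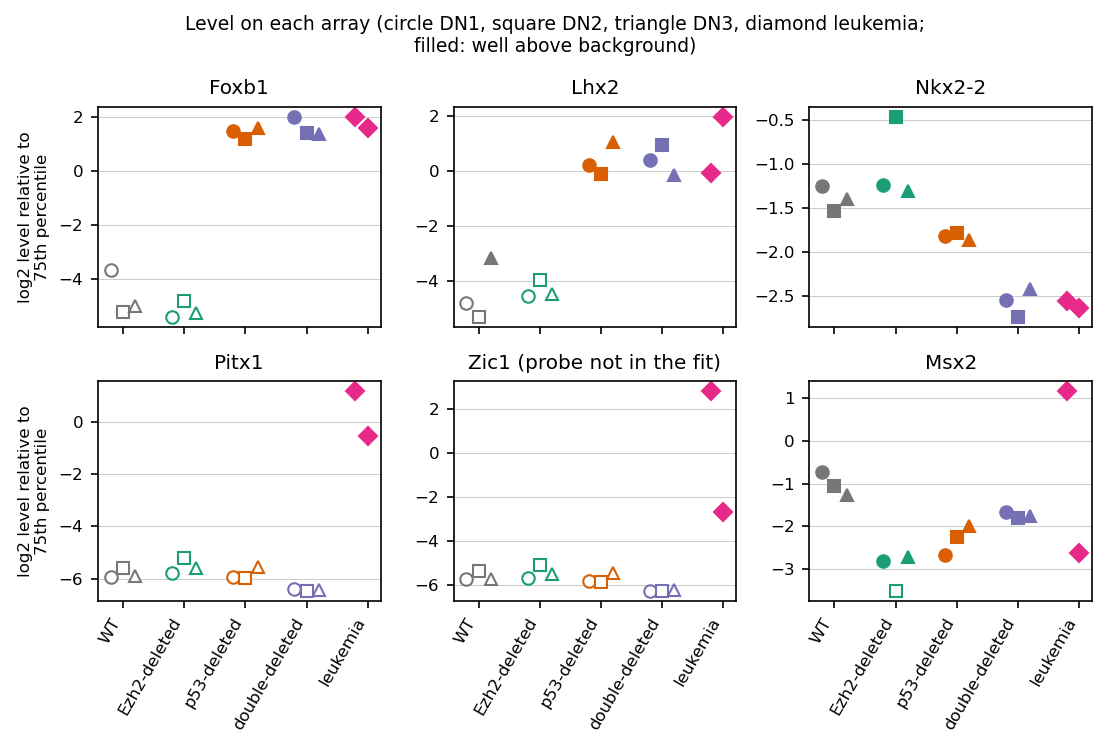
Levels of 6 members (vertical axes, log2 relative to the 75th percentile of the array) on each array, by genotype or leukemia, with filled symbols where the probe was well above background. Foxb1 and Lhx2 lie above -0.2 in all p53-deleted, double-deleted and leukemic arrays and below -3 in all WT and Ezh2-deleted arrays. For Zic1 the probe outside the fit is drawn.

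In the main processing neither gene was called between groups whose labels differed in Ezh2 alone. With normexp both were called higher in Ezh2-deleted than in WT cells, across slides. Foxb1 was then higher by 0.66 (adjusted p = 0.02) and Lhx2 by 0.76 (adjusted p = 0.0443), where the median over all features was 0.35. The mean level of Foxb1 was 1.41 ± 0.22 in p53-deleted and 1.59 ± 0.35 in double-deleted cells (SD, n = 3 each), a fitted difference of 0.18 ± 0.37 (SE, adjusted p = 0.738). For Lhx2 the means were 0.41 ± 0.60 and 0.40 ± 0.55 (SD, n = 3 each), a difference of -0.01 ± 0.54 (SE, adjusted p = 0.992). These groups lay on different slides. Across both states of p53, with 3 arrays of slide 2 on each side, Ezh2 loss moved Foxb1 by -0.17 ± 0.26 (adjusted p = 0.746) and Lhx2 by 0.04 ± 0.38 (adjusted p = 0.965). In the leukemias Foxb1 read 1.98 and 1.61 and Lhx2 read -0.06 and 1.98 in mice 13 and 19, within or above the range of the double-deleted arrays.

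Nkx2-2, an NK-like homeodomain factor of the ventral spinal cord and pancreatic islets, fell by 0.99 ± 0.19 with p53 loss (SE, 6 against 6 arrays, adjusted p = 0.0195). It read -1.25, -1.53 and -1.40 in WT DN1, DN2 and DN3 cells, -1.24, -0.46 and -1.31 in Ezh2-deleted, and -1.81, -1.78 and -1.86 in p53-deleted cells. It was lowest in double-deleted cells, at -2.55, -2.74 and -2.42, and in the leukemias, at -2.56 and -2.64. No array labelled with the p53 deletion reached the lowest of those without it. Its second probe was below background on all 14 arrays, so this change rests on 1 probe. The call ended without double-deleted DN1 (-1.01, adjusted p = 0.0521), which is also what the slide as a block amounts to, and without double-deleted DN2 (-0.92, adjusted p = 0.0734). The fall of 1.17 ± 0.26 between double-deleted and WT cells (adjusted p = 0.035) lost its call without any 1 of the 6 arrays, at -1.31 to -1.01, and on slide 1 alone, at -1.11. Nkx2-2 was not called between p53-deleted and WT cells (-0.43 ± 0.26, adjusted p = 0.235). Nor was it called between Ezh2-deleted and p53-deleted cells, all on slide 2 (0.82 ± 0.26, adjusted p = 0.13).

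With Ezh2 loss over both states of p53, 0 of the 13 members passed limma's test, against 3.81% of all features, and 1 had an unadjusted p under 0.05. That 1 was Msx2, a homeodomain factor of bone and limb, at -0.71 ± 0.20 (adjusted p = 0.0912), which was called at -0.85 without p53-deleted DN1 (adjusted p = 0.0443). Sox1, a factor of neural progenitors, stood at -0.90 ± 0.40 (adjusted p = 0.256) and Neurog1, a factor of sensory neurons, at -0.46 ± 0.23 (adjusted p = 0.297). The highest difference was that of Pax3, a factor of neural crest and muscle precursors, at 0.42 ± 0.35 (adjusted p = 0.535). The median over the 13 was -0.17 and that over all features -0.05. Neurog1 stood at -0.79 ± 0.23 with p53 loss (adjusted p = 0.066) and was called there without WT DN2 (-0.97) or Ezh2-deleted DN1 (-0.95).

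**Figure D5:**
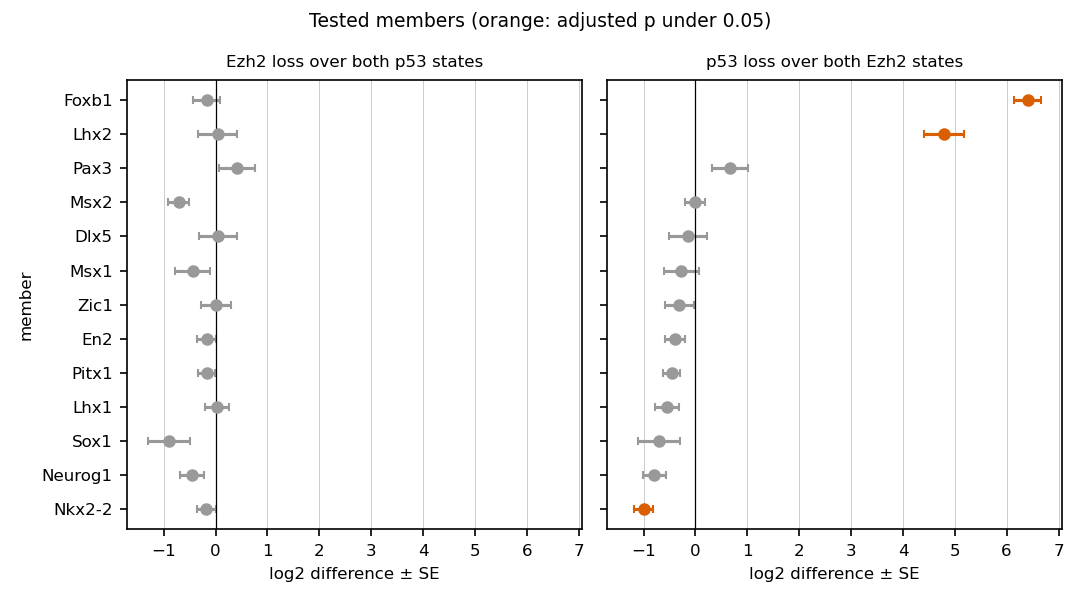
Fitted log2 difference of the 13 tested members (horizontal axis, points with SE bars) for Ezh2 loss (left) and p53 loss (right), each 6 against 6 arrays, with orange for adjusted p under 0.05. Foxb1 at 6.40 and Lhx2 at 4.80 rise with p53 loss, Nkx2-2 at -0.99 falls, and no point on the left is called.

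Comparisons of a single-deleted genotype with WT cross slides, and slide and genotype cannot be told apart in them. They called 34.1% of all features for Ezh2-deleted and 35.8% for p53-deleted cells, so counts of members carry little here. The effect of Ezh2 loss in p53-deleted minus that in p53-intact cells, which sets slide 2 against all others, called 9 of the 13 members and 44.9% of all features. Of the 13 members, 6 were lower and 1 higher in Ezh2-deleted than in WT cells, and 7 were lower and 2 (Foxb1 and Lhx2) higher in p53-deleted than in WT cells. These tallies turn with the background correction: with background estimated by normexp, 7 members were higher and 0 lower in Ezh2-deleted cells, and 4 were higher and 1 lower in p53-deleted cells. Over all 27056 features, normexp called 9933 higher and 3565 lower in Ezh2-deleted cells, against 4218 and 5003 in the main processing. For p53-deleted cells these were 8138 and 3829, against 4145 and 5548. In the main processing Lhx1, Pax3, Sox1, Dlx5, Msx1 and Msx2 were lower in both comparisons, which share the WT arrays, and En2 in p53-deleted cells alone passed the threshold.

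Sox1 showed the widest of these gaps among the lower members. It read -1.33, -1.36 and -1.50 in WT DN1, DN2 and DN3 cells, and was below background in all Ezh2-deleted and p53-deleted cells, at -5.65 to -3.56. In double-deleted cells, on the slide of WT but for DN1, it read -4.01, -2.45 and -2.50, detected on all 3 and below each WT array. Sox1 was at least 4.01-fold lower in Ezh2-deleted (adjusted p = 0.00233) and at least 4.72-fold lower in p53-deleted than in WT cells (adjusted p = 0.00283). Double-deleted cells differed from WT by -1.59 ± 0.57 (adjusted p = 0.115). A second Sox1 probe was detected in WT DN1 cells alone, at -2.72.

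Msx2 and Msx1, homeodomain factors of limb, tooth and skull, were both highest in WT among the non-leukemic groups. Msx2 read -0.74, -1.06 and -1.27 in WT DN1, DN2 and DN3 cells, -2.80, -3.51 and -2.71 in Ezh2-deleted, -2.66, -2.25 and -2.0 in p53-deleted and -1.67, -1.80 and -1.75 in double-deleted cells, with no overlap between WT and any other genotype. Its fitted difference from WT was -1.99 ± 0.28 in Ezh2-deleted (adjusted p = 0.000961), and in p53-deleted cells it was -1.28 ± 0.28 (adjusted p = 0.00779). Msx1 read -2.09, -2.87 and -3.46 in WT cells and was below background on all of slide 2. It was at least 1.51-fold lower in Ezh2-deleted (adjusted p = 0.032) and at least 1.78-fold lower in p53-deleted cells (adjusted p = 0.0465). The first of these calls ended without WT DN1 (-1.28), WT DN2 (-1.46), Ezh2-deleted DN2 (-1.19) or Ezh2-deleted DN3 (-1.70), and the second under 16 of 23 alternatives, 8 of them the loss of 1 array. In double-deleted cells Msx1 read -3.71, -3.04 and -3.82, detected on all 3.

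Dlx5, a homeodomain factor of bone and branchial arches, Pax3 and Lhx1, a LIM factor of kidney and head organizer, were below background on all of slide 2 and on part of the WT arrays. Dlx5 read -1.45 and -2.34 in WT DN2 and DN3 cells, was below background in WT DN1 and on all of slide 2, and read -3.32, -2.93 and -2.30 in double-deleted cells. By the calculation used for Foxb1, it was 1.57-fold lower in Ezh2-deleted (adjusted p = 0.00854) and 1.85-fold lower in p53-deleted than in WT cells (adjusted p = 0.00545). The undetected WT DN1 reading enters these folds, so they are no strict bounds. Pax3 was detected in WT DN1 cells at -2.54, in no other WT array and on none of slide 2. By the same calculation Pax3 was 1.11-fold lower in Ezh2-deleted (adjusted p = 0.0115) and 1.31-fold lower in p53-deleted than in WT cells (adjusted p = 0.0182). The undetected WT DN2 and DN3 readings enter these folds, so they too are no strict bounds. The call in p53-deleted cells ended without p53-deleted DN1 (-1.54) or p53-deleted DN3 (-1.68). The other Pax3 probe, below background on all arrays of these comparisons, showed no fall. It differed from WT by 0.37 ± 0.35 in Ezh2-deleted (adjusted p = 0.441) and 0.08 ± 0.35 in p53-deleted cells (adjusted p = 0.878).

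Lhx1 was detected in WT DN1 and DN3 cells, at -3.14 and -3.19, and on none of slide 2. By the calculation used for Foxb1, it was 1.17-fold lower in Ezh2-deleted (adjusted p = 0.0184) and 1.38-fold lower in p53-deleted than in WT cells (adjusted p = 0.003). The undetected WT DN2 reading enters these folds, so they are no strict bounds. The call in Ezh2-deleted cells ended without WT DN1 (-1.05), WT DN3 (-1.20) or Ezh2-deleted DN3 (-0.99). En2, a factor of the midbrain and hindbrain boundary, read -2.69, -2.33 and -2.16 in WT and -3.51, -3.28 and -3.16 in p53-deleted cells, the first of the latter below background. Its difference was -0.92 ± 0.27 (adjusted p = 0.0265), and the call ended without any 1 of those 6 arrays, at -0.97 to -0.83. With background estimated by normexp, the differences of Lhx1, Pax3, Dlx5, Msx1 and, in p53-deleted cells, En2 against WT changed sign, Lhx1 being called higher in Ezh2-deleted cells (0.55, adjusted p = 0.0148), and the calls ended for Sox1 in Ezh2-deleted (-0.47) and for Msx2 in Ezh2-deleted (-0.33) and p53-deleted cells (-0.34).

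Between double-deleted and p53-deleted cells, also on different slides, 3 of the 13 members were higher and 1 lower, with 31.2% of all features called. With normexp 0 were higher and 9 lower, among them Lhx1 (-0.96, adjusted p = 0.000433) and Dlx5 (-0.58, adjusted p = 0.0304), and Pax3 stood at -0.10, so the directions of these 3 depend on the background correction. Over all 27056 features, normexp called 3780 higher and 12331 lower here, against 4325 and 4127 in the main processing. In the main processing Pax3 read -2.85, -1.83 and -1.83 in the double-deleted populations, in stage order, and was below background in p53-deleted cells, at least 2.76-fold higher (adjusted p = 0.0028). Its other probe was detected in double-deleted DN2 and DN3 cells, at -3.64 and -3.93, and in no other array. Dlx5 was at least 1.72-fold higher (adjusted p = 0.0083). Lhx1 passed the test (1.31 ± 0.33, adjusted p = 0.0166), with detection in 2 of 3 double-deleted arrays and a bound under 1, so no fold is given. That call ended without double-deleted DN1 (1.23) or double-deleted DN2 (1.29). With all levels set to at least the highest detection limit of the 14 arrays, Pax3 (0.81), Dlx5 (0.24) and Neurog1 were no longer called, Lhx1 was not tested, and Nkx2-2 was called, at -0.75 (adjusted p = 0.0471).

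Between double-deleted and WT cells, of which DN2 and DN3 share slide 1, Foxb1 and Lhx2 rose and Nkx2-2 and Neurog1 were called lower, 4 of 13 with 7.41% of all features called. Neurog1 was below background on all 6 arrays of this comparison (-1.25 ± 0.32, adjusted p = 0.0493), so no fold is given, and its call was lost in 18 of 24 alternatives. It was detected on 4 of the 6 arrays of slide 2 and on no other: at -2.55 and -2.87 in Ezh2-deleted DN2 and DN3 cells, and at -3.37 and -3.18 in p53-deleted DN1 and DN2 cells. By the calculation used for Foxb1, it was 1.49-fold higher in Ezh2-deleted than in WT cells (adjusted p = 0.0169), a call that ended without WT DN2 (0.88), Ezh2-deleted DN2 (0.96) or Ezh2-deleted DN3 (1.19). It was 1.75-fold lower in double-deleted than in p53-deleted cells (adjusted p = 0.00154). The undetected readings of Ezh2-deleted DN1 and p53-deleted DN3 enter these folds, so they are no strict bounds.

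Between Ezh2-deleted and p53-deleted cells, all on slide 2, 2 of the 13 members were called, Foxb1 and Lhx2, both lower in Ezh2-deleted cells, with 3.93% of all features called. Both calls held in each of 24 alternatives, with a fitted difference of -6.91 to -2.30 for Foxb1 and -5.08 to -1.52 for Lhx2. The values nearest 0 came from background estimated by normexp.

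Between stages, 0 of 13 members passed from DN1 to DN2, with 1.38% of all features called, and 0 of 13 from DN2 to DN3, with 0.0222% called (limma, 4 arrays a stage). Lhx1 (0.65 ± 0.28), Zic1 (0.87 ± 0.35) and Dlx5 (1.01 ± 0.44) had an unadjusted p under 0.05 for DN2 against DN1 (adjusted p = 0.254, 0.226 and 0.255), and no member had one for DN3 against DN2. No alternative called a member in either step. Foxb1 moved by -0.46 ± 0.32 and Lhx2 by 0.08 ± 0.47 from DN1 to DN2.

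In the leukemias, compared with double-deleted cells at DN2 by a model of all 14 arrays, 1 of the 13 members was called, with 2.42% of all features called. Leukemia and slide 4 cannot be told apart. Pitx1, a paired-like homeodomain factor of hindlimb and pituitary, read 1.16 in leukemia 13 and -0.54 in leukemia 19 and was below background on all 12 other arrays, at -6.46 to -5.21. Its level was at least 21.7-fold higher in the leukemias than in double-deleted cells (fitted 6.65 ± 0.47, adjusted p = 0.00027). Pitx1 entered the test through the leukemias alone, so that its call follows in part from the filter, and with detection required on 3 arrays it was not tested. The 2 leukemias were 1.70 apart, and neither overlapped with the other arrays.

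Zic1, a zinc finger factor of the dorsal neural tube and cerebellum, gave different answers on its 2 probes. The brighter probe, used in the fit, read -2.58 and -3.72 in leukemias 13 and 19, within its range of -4.89 to -2.54 elsewhere, and differed by -0.07 ± 0.54 (adjusted p = 0.964). The other read 2.83 and -2.70, detected in both, and -6.26 to -5.09 on the 12 non-leukemic arrays, below background on each. The mean of the 2 leukemias was at least 18.3-fold above double-deleted cells, a bound that rests on leukemia 13 and does not hold for leukemia 19 alone. It is given as a description since the probe was chosen after its values were seen. Which transcripts each probe reports was not tested.

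Other members differed between the 2 leukemias. Msx2 read 1.17 in leukemia 13, above all other arrays, and -2.62 in leukemia 19, below all double-deleted arrays. En2 read -0.31 in leukemia 19 and -1.95 in leukemia 13, both above all 12 non-leukemic arrays (1.70 ± 0.49 over both, adjusted p = 0.108). En2 was called without leukemia 13 (2.52, adjusted p = 0.0196), and Msx2 without leukemia 19 (3.05, adjusted p = 0.00906), each then resting on 1 leukemia assumed to vary like the other arrays. Pax3 read -2.34 and -0.88, the latter the highest of its 14 values. There were 4 members detected in leukemia 13 alone: Tbx2 at -3.23 and Tbx3 at -3.14, T-box factors of heart and limb, Hand2 at -3.54, a helix-loop-helix factor of heart and limb, and Foxa2 at -3.55, a forkhead factor of endoderm and floor plate. No member was detected in leukemia 19 alone. In leukemia 13, 62.4% of named genes were detected and 56.9% in leukemia 19. The mesenchyme markers Pdgfra, at -2.73, and Col3a1, at -1.59, were detected in leukemia 13 and on no other array, and 4 of 8 such markers were detected there against 1 in leukemia 19. The part of such cells in these values was not tested.

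The last of the members detected on 1 array were Irx3, an Iroquois factor of neural and heart patterning, and Nkx2-5, a factor of the heart and spleen. Irx3 read -0.55 in p53-deleted DN3 cells, far above its next value of -4.09 in p53-deleted DN1 cells. Nkx2-5 read -2.87 in Ezh2-deleted DN3 cells, next to undetected values of -3.50 and -3.51 in the other Ezh2-deleted cells. Neither passed the filter for the test. With no filter on dim probes, Nkx2-5 was called higher in Ezh2-deleted (2.08, adjusted p = 0.00201) and p53-deleted (1.35, adjusted p = 0.0149) than in WT cells and lower in double-deleted than in p53-deleted cells (-1.74, adjusted p = 0.00587), each across slides and with at most 1 array above background.

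The writers and readers of the Polycomb marks were on the arrays in full. Of 12 PRC2 subunits, all tested, Epop, an accessory subunit, rose by 1.25 ± 0.15 with Ezh2 loss (adjusted p = 0.0027), and Phf19, an accessory subunit that binds methylated histone H3, rose by 0.96 ± 0.22 with p53 loss (adjusted p = 0.0349). None of the 12 fell in either, and their medians were 0.11 and 0.01 against -0.05 and -0.08 over all features. Of 11 tested subunits of Polycomb repressive complex 1, Bmi1, a RING finger subunit, rose by 1.52 ± 0.21 with Ezh2 loss (adjusted p = 0.00566). Cbx8, a chromodomain subunit, fell by 0.92 ± 0.21 with p53 loss (adjusted p = 0.0346). Neither of the 2 demethylases of the mark passed in these 2 comparisons.

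Relatives of the members that work in blood cells were mostly expressed. Of 20 such genes, 14 to 19 were detected per array, against 2 to 15 of the 41 members. Of the 19 tested, Foxp3, the forkhead factor of regulatory T cells, fell by 2.50 ± 0.49 with Ezh2 loss (adjusted p = 0.0267). Tbx21 and Eomes, T-box factors of NK and effector T cells, fell by 4.73 ± 0.69 and 5.61 ± 0.82 from DN1 to DN2, as did 5 of 8 NK cell markers. Gata1, a factor of red cells and megakaryocytes, rose by 2.0 ± 0.38 in the leukemias (adjusted p = 0.0272).

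Of 103 further developmental transcription factors, 102 were on the arrays and 31 were tested. With Ezh2 loss 2 rose and 1 fell, where 3.81% of all features were called, and with p53 loss 2 rose and 4 fell, where 7.73% were. Olig3, a helix-loop-helix factor of the dorsal neural tube, rose with both: it read -2.47, -5.24 and -4.46 in WT DN1, DN2 and DN3 cells, 0.47, -0.95 and 0.23 in Ezh2-deleted, -0.17, 0.39 and 1.41 in p53-deleted and 3.90, 2.55 and 1.78 in double-deleted cells, with 4.01 and 4.06 in the leukemias. Its difference was 3.09 ± 0.48 with Ezh2 loss (adjusted p = 0.0102) and 3.71 ± 0.48 with p53 loss (adjusted p = 0.00518). With p53 loss Barx2, Gata5, Sox21 and Dlx3 fell by 1.07 to 0.63, and with Ezh2 loss Pou4f1, a factor of sensory neurons, fell by 1.64 ± 0.30 (adjusted p = 0.0196).

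Markers of other cell types are given beside the rises of Foxb1 and Lhx2. Of 8 mesenchyme markers, 1 to 3 were detected per array in WT, 1 or 2 in Ezh2-deleted, 2 or 3 in p53-deleted and 2 or 3 in double-deleted cells, with summed levels (log2 of the summed scaled intensities) of 0.53 to 2.23, 0.47 to 2.87, 1.12 to 4.67 and 2.61 to 2.94. Pdgfra, Col3a1, Dcn, Lum and Postn were detected in none of these 12 arrays, although Pdgfra and Col3a1 were in leukemia 13. Col1a2, a collagen gene, rose by 4.32 ± 0.63 with p53 loss (adjusted p = 0.00918), to 4.63 in p53-deleted cells at DN1, 0.55 at DN2 and -0.17 at DN3, with 1.28, 0.56 and -1.26 in double-deleted cells. It was the only 1 of 3 tested mesenchyme markers called with p53 loss. Pdgfrb, detected on all 12 arrays, was not called there and rose by 1.68 ± 0.37 with Ezh2 loss (adjusted p = 0.0442). Its mean was -0.41 in p53-deleted and 2.30 in double-deleted cells. Of 8 neural and glial markers the summed level lay between 5.09 and 5.62 in WT cells. It was 3.33 to 4.14 in the single-deleted cells of both kinds, 4.20 to 4.63 in double-deleted cells and 5.14 to 5.26 in the leukemias. Syt1 and Nefl were detected on none of the 12 non-leukemic arrays.

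Of 10 thymic epithelium markers, 6 were tested and 1, Epcam, was called in the leukemias, where 3 to 5 were detected against 4 to 6 in double-deleted cells. Their summed level was 4.41 to 5.33 in the leukemias, 2.63 to 2.75 in double-deleted, at most 1.1 in WT, at most 1.43 in p53-deleted and 1.98 to 3.40 in Ezh2-deleted cells. Foxn1, Krt8 and Psmb11 of this list were detected on no array. Krt18, a keratin of simple epithelia, read 5.23 and 4.26 in leukemias 13 and 19, and Epcam, an epithelial adhesion molecule, read 0.59 and 0.61. With Ezh2 loss Krt18 rose by 2.76 ± 0.30 (adjusted p = 0.00196) and Krt14 fell by 1.34 ± 0.29 (adjusted p = 0.037). With p53 loss Epcam fell by 1.81 ± 0.28 (adjusted p = 0.0107). Of 7 B cell markers, 1 was called with p53 loss, Cd79b, which fell by 1.76. Of 8 myeloid and dendritic markers 2 were called, Csf1r and Lyz2, which fell by 1.11 and 1.18. In this comparison 7.73% of all features were called. The part of these cell types in the members' differences was not tested beyond these values.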

How the data were processed

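Per the file headers, the authors read 14 Agilent 1-colour arrays with Feature Extraction 10.7.1.1 (array design build mm9), whose deposited processed intensity is background-subtracted and spatially detrended. Per the labels' protocols, 20 ng of total RNA was amplified and labelled with Cy3. The deposited value table holds the same intensity scaled per array and served as an alternative. Scanner files carry no gene names, so probes were named through RefSeq accessions (27656 of 55681 probes) in the GRCm38.p6 table. Control and outlier spots were left out and spots of a probe averaged. The main values are log2 intensity minus the log2 75th percentile of the array. A gene was represented by the brightest of its probes well above background on at least 2 of 14 arrays. limma 3.58.1 (R 4.3.3) fitted additive genotype and stage to 12 arrays (6 residual degrees of freedom), or all 14 with a leukemia term, in 10 comparisons with Benjamini-Hochberg adjustment over 27056 features. With 1 array per population, p-values rest on the spread over 3 stages and not over mice, and the number of arrays limits precision. In data simulated for the p53 comparison, the fit recovered 24%, 86% and 98% of changes of log2 1, 3 and 5 over 27045 features. Normexp alternatives used median signals, since mean signals were not used here. Named were all members detected or called, and called genes of the lists of Polycomb subunits, demethylases, blood-cell relatives and further developmental factors, at most 5 per list and direction (some called genes of these lists are not reported here), with cell type markers beside them. The members and lists were chosen with earlier results of these data known.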

Additional observations from a re-analysis of the deposited data

Results flagged for a closer look

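On the 6 arrays not labelled with the p53 deletion, 1 array stood apart from the other 5 for 2 members: Foxb1 in WT DN1 cells, at -3.67 where the rest lay at -5.41 to -4.82 and all were below background, and Nkx2-2 in Ezh2-deleted DN2 cells, at -0.46 where the rest lay at -1.53 to -1.24. Of 52 such groups examined, chance flags about 1 in 20.

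The effect of Ezh2 loss differed between p53-deleted and p53-intact cells for 9 of the 13 tested members, by a limma interaction term with adjusted p under 0.05, where 44.9% of all features were called. This contrast sets slide 2 against all other slides, so slide and interaction cannot be told apart. As the effect in p53-deleted minus that in p53-intact cells, the difference was 5.04 for Sox1, 5.01 for Pax3, 4.75 for Dlx5, 2.56 for Lhx1, 2.55 for Msx2, 2.27 for Msx1 and 1.05 for En2. It was -1.14 for Nkx2-2 and -3.38 for Neurog1. For Foxb1 it was 0.71 ± 0.53 (adjusted p = 0.297) and for Lhx2 -0.10 ± 0.76 (adjusted p = 0.927).

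Among the second probes of tested members, which were outside the main fit, those of Zic1 and Pax3 were detected on arrays of deleted cells and on no WT array. The second probe of Zic1 reached 2.83 in leukemia 13, and the second probe of Pax3 reached -3.64 in double-deleted DN2 cells.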

How the results depend on the processing

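Foxb1 and Lhx2 were called in each alternative of p53 loss (23 each, fitted 2.82 to 6.63 and 1.91 to 5.11). Neither would have entered the main test without arrays labelled with the p53 deletion. Pitx1, which entered the test through the leukemias alone, was called in the 25 alternatives that tested it (3.30 to 7.50). Counts of members called that moved by over 1.5 times were as follows, and the cause was not tested beyond what each setting changes. With normexp the counts were 10 in place of 3 for p53 loss, 11 in place of 4 for double-deleted against WT, 5 in place of 9 for p53-deleted against WT and 9 in place of 4, all lower, for double-deleted against p53-deleted cells. For Ezh2-deleted against WT the count stayed 7, but with 7 higher and 0 lower in place of 1 and 6. With no filter on dim probes they were 1 for Ezh2 loss (Dlx1, detected on no array), 9 for double-deleted against p53-deleted cells and 2 for the leukemias (Hand2 joining Pitx1). With levels set to at least the highest detection limit, an alternative added after seeing the data, they were 1 for Ezh2 loss (Sox1, -0.62, which was also called for double-deleted against WT at -1.25), 2 for Ezh2-deleted and 5 for p53-deleted against WT and 1 for double-deleted against p53-deleted cells. Double-deleted against WT gave 1 on slide 1 alone and 2 from only the 6 arrays compared, and p53-deleted against WT 5 from its 6 arrays. The leukemias gave 0 with detection required on 3 arrays, where Pitx1 was not tested, and 2 with each probe apart, also added later. Leaving out 1 array gave 0 to 1 for Ezh2 loss, 2 to 4 for p53 loss and for double-deleted against WT, 4 to 7 and 6 to 11 for Ezh2-deleted and p53-deleted against WT, 3 to 5 for double-deleted against p53-deleted cells and 1 to 2 for the leukemias. The count for double-deleted against WT was 2 without each of the 3 double-deleted arrays, WT DN1 or WT DN3, and that for Ezh2-deleted against WT was 4 without Ezh2-deleted DN3. The median number of members detected per array was 7.5, and 18 with the looser mark.

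Under normexp, signs turned for Lhx1 (0.55), Pax3 (0.38), Dlx5 (0.30) and Msx1 (0.31) in Ezh2-deleted against WT, for Lhx1 (0.36), Pax3 (0.22), Dlx5 (0.12), Msx1 (0.20) and En2 (0.19) in p53-deleted against WT, and for Lhx1 (-0.96), Pax3 (-0.10) and Dlx5 (-0.58) in double-deleted against p53-deleted cells. Over all features, p53 loss called 813 higher and 1278 lower, against 1043 and 6328 with normexp, 674 and 570 with the percentile over probes detected on all arrays and 423 and 382 with the slide as a block, where Ezh2 loss called 450 and 138 in place of 690 and 341. Double-deleted against WT called 976 and 1029, against 1642 and 8678 with normexp, 779 and 383 with that percentile, 330 and 28 on slide 1 alone and 518 and 108 from its 6 arrays. With normexp, Ezh2-deleted against WT called 9933 higher and 3565 lower over all features, and p53-deleted against WT 8138 and 3829. Double-deleted against p53-deleted cells then called 3780 and 12331. Under normexp the median over all features was 0.35 in place of 0.10 for Ezh2-deleted and 0.27 in place of 0.05 for p53-deleted against WT, and -0.44 in place of -0.12 for double-deleted against p53-deleted cells. No paired analysis was possible because the genotypes share only replicate number 1. Signal over background limits what can be said of members below it.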
